A study of Homo sapiens with 36 samples.

Results

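The 5 genes, LRFN2, GRIK3, CELF4, ZNF423 and KIF26B, were examined for macroH2A and γH2AX occupancy in K562 cells with and without aphidicolin. They were chosen by measured values of these same libraries, since they lie at 100-kb windows with large differences in macroH2A1.2 or macroH2A1 coverage under aphidicolin. They hold 17 of the 30367 windows of 100 kb and 169 of the 303670 steps of 10 kb into which the genome was divided, counting a window or step when at least 50% of it lay in the gene. Spans are in hg19: LRFN2 lies on chromosome 6 from 40.359 to 40.555 Mb, GRIK3 on chromosome 1 from 37.261 to 37.5 Mb, CELF4 on chromosome 18 from 34.823 to 35.146 Mb. ZNF423 lies on chromosome 16 from 49.525 to 49.892 Mb and KIF26B on chromosome 1 from 245.318 to 245.866 Mb. Their lengths are 196, 239, 323, 367 and 548 kb. No hg19 annotation was used here, so no exon or intron is stated and other genes of the same families were not placed.

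MacroH2A1 is a variant of histone H2A that carries a large globular macro domain behind its histone fold, and macroH2A1.2 is a splice isoform of it. The variant forms broad domains, often over silent chromatin and over developmental genes that are inactive in the cell type at hand. γH2AX is H2AX phosphorylated on its C-terminal tail by kinases that respond to broken DNA or stalled replication forks, and it spreads over large stretches around such places. LRFN2 encodes a synaptic adhesion protein with leucine-rich repeats and a fibronectin domain, and GRIK3 a subunit of kainate-type glutamate receptors. CELF4 encodes an RNA-binding protein of neurons, ZNF423 a zinc-finger transcription factor of neural and fat-cell development, and KIF26B an atypical kinesin needed in kidney development.

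Occupancy was measured by chromatin immunoprecipitation and sequencing in K562 cells, a long-established human line from a chronic myeloid leukaemia. Aphidicolin inhibits replicative DNA polymerases and slows replication forks; its dose and time are not in the sample labels, except that some titles carry the number 0.5 without a unit. The deposited lists give islands, broad enriched stretches, for each of 22 libraries, and the measure used throughout is the percent of a region that lies inside islands. Titles follow 4 naming styles, called title sets here. Set 1 holds macroH2A1 and γH2AX, each with untreated replicates 1 and 2 and aphidicolin replicates 1 and 2. Set 2 holds macroH2A1.2 and γH2AX, each with untreated replicates 1 and 3 and aphidicolin replicates 1 and 3. Set 3 holds γH2AX with 1 untreated and 1 aphidicolin library each of K562 and 2A3, a line that the labels do not describe further. Set 4 holds macroH2A1.2 in untreated K562 with the short hairpin sh-RFP (1 library) and with sh-mH1.2 (1 library). The labels do not say whether replicates are separate cultures, so a p-value here speaks only of the scatter among these libraries, possibly technical.

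Lists differed in size: 2.02e6 to 75.2e6 reads lay in islands per library, and the total number of reads sequenced is unknown. The 2 extremes are the sh-mH1.2 and sh-RFP lists, with 3212 islands over 23.7 Mb and 39096 islands over 418 Mb. Covered length was 242 and 286 Mb in untreated and 307 and 318 Mb in aphidicolin macroH2A1.2 lists, and 332 and 343 Mb against 438 and 439 Mb for macroH2A1. For γH2AX in K562 it was 38.6 to 85.3 Mb in the 5 untreated and 64.6 to 235 Mb in the 5 aphidicolin lists, so the aphidicolin lists were on average longer for each target. A stretch of chromosome 22 that K562 carries in extra copies was read-dense in the 8 macroH2A lists of sets 1 and 2, at 3.7 to 5.01 times each list's mean.

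RefSeq promoters (GRCh38.p14, from 250 bases before to 50 bases after the start of transcription) were on hand for GRIK3, CELF4 and ZNF423. LRFN2 and KIF26B had no entry. The sequences are shown because their content of CG dinucleotides, the site of DNA methylation in human cells, differed widely. No position was converted between builds. Whether each printed promoter lies at the 5′ end of its hg19 span, or at another start inside the gene, was not checked. CG (the letters C and G, which read the same on both strands) is in capitals. The promoters are GRIK3 at chr1:37034466-37034765, ZNF423 at chr16:49857870-49858169 and CELF4 at chr18:37485743-37486042, each on the minus strand and printed 5′ to 3′.
GRIK3: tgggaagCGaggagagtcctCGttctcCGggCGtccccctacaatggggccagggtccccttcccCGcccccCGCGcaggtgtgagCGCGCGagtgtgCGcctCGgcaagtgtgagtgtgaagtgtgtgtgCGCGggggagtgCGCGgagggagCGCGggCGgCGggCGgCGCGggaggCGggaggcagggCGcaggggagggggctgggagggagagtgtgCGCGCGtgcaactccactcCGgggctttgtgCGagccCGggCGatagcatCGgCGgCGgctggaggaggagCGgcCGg
ZNF423: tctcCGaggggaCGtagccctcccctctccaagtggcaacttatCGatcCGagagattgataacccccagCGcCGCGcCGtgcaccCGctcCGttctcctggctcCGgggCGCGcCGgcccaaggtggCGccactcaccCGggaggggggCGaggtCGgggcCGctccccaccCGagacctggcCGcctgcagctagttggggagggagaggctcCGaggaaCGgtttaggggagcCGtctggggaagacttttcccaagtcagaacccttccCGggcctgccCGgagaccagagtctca
CELF4: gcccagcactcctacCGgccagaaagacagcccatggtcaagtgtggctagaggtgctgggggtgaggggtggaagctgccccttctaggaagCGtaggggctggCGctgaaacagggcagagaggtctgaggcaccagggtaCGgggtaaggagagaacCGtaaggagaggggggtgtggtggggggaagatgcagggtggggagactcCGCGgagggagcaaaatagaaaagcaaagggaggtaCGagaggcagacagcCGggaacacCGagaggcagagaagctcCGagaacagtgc
The GRIK3 promoter held 37 CG and a GC content of 74.3%, and 11.3% of the 35116 promoters in the table held as many. ZNF423 held 26 CG (GC 68.3%, reached by 30.1% of promoters). A downstream start of ZNF423 at chr16:49664275-49664574 held 14. CELF4 held 11 (GC 61.7%, reached by 54.7%). At least 1 CG was present in 96.0% of all promoters, and the median was 14. The printed GRIK3 promoter thus lay far above the middle and the printed CELF4 promoter just below it.

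In the macroH2A1.2 lists, coverage of the first 10 kb of GRIK3 was 30.0% in both untreated libraries and 84.0 and 94.0% under aphidicolin. Coverage of the first 10 kb of CELF4 was 0% in both untreated libraries and 76.0 and 56.0% under aphidicolin. At ZNF423 it was 16.0 and 52.0% untreated and 66.0 and 58.0% under aphidicolin. At these 3 starts the groups did not overlap, though at ZNF423 the nearest values were 52.0 and 58.0%. At LRFN2 (70.0 and 50.0% untreated, 92.0 and 64.0% under aphidicolin) and at KIF26B (66.0 and 0% untreated, 26.0 and 46.0% under aphidicolin) they did. Of all 100-kb windows tested for macroH2A1.2, 41.4% had both aphidicolin libraries above both untreated ones. No share was counted for 10-kb starts, and nothing is read from the count of separate starts. Sequence and coverage come from different builds, and no position was carried from one to the other. These coverages are therefore not values of the printed promoters, and the printed CELF4 promoter in particular may lie outside the first 10 kb.

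The macroH2A1.2 values chose LRFN2, GRIK3, CELF4 and ZNF423, so they are given as a description and were not tested. LRFN2, the synaptic adhesion gene, was covered to 10.8% (replicate 1) and 23.3% (replicate 3) in untreated and to 84.5 and 78.5% in aphidicolin cells. Means were 17.0% ± 8.8 and 81.5% ± 4.26 (SD, n = 2 each), 64.4 percentage points apart. Both aphidicolin libraries lay far above both untreated ones. The kainate receptor gene GRIK3 was covered to 24.0 and 15.3% in untreated and to 88.2 and 89.0% in aphidicolin cells, with means 68.9 points apart. That was the widest gap of the 5 genes, again without overlap. CELF4, encoding the neuronal RNA-binding protein, was covered to 6.93 and 19.6% untreated and to 81.6 and 75.9% under aphidicolin, 65.5 points apart. ZNF423 was covered to 8.5 and 20.8% untreated and to 70.0 and 70.1% under aphidicolin, 55.4 points apart. The untreated libraries differed from each other more than the aphidicolin libraries did in all 5 genes. KIF26B, chosen for macroH2A1, had 35.6 and 21.8% untreated and 65.0 and 66.1% under aphidicolin, a gap of 36.9 points between non-overlapping groups.

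**Figure D1:**
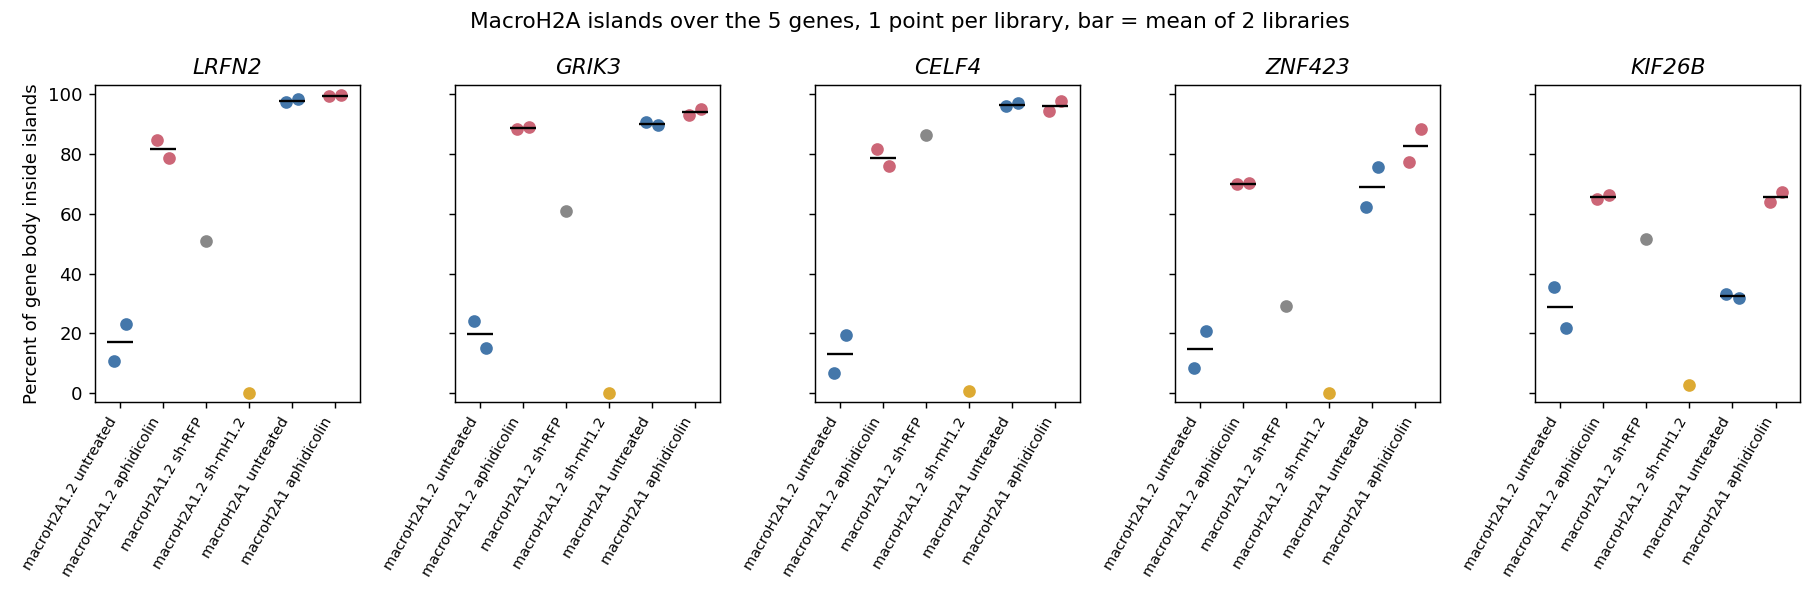
Percent of each gene body inside macroH2A islands (vertical axis) in the 10 macroH2A lists, 1 point per library with a bar at the mean of 2 libraries. For macroH2A1.2 the aphidicolin points (65.0 to 89.0%) lie above the untreated ones (6.93 to 35.6%) in every gene, while untreated macroH2A1 already covers 89.7 to 98.4% of LRFN2, GRIK3 and CELF4.

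The median gap over the 5 gene bodies was 64.4 points, against a median of 1.5 points and a 99th percentile of 54.1 points over all 12335 windows tested for macroH2A1.2. Of the 17 windows of the genes, 13 were called higher and 0 lower in limma at adjusted p 0.05, against 15.2% and 6.73% of all tested windows, and 16 had both aphidicolin libraries above both untreated ones, against 41.4%. Of the 160 tested 10-kb steps of the genes 56 were called higher and 0 lower, against 7.26% and 4.43% of all tested steps. These counts describe the choice of the genes and nothing is read from them. Among called windows with separate groups, ordered by the gap, the window at 40400001 to 40500000 in LRFN2 was in place 3 (17.1% ± 10.9 to 91.4% ± 5.94). Windows of ZNF423 (49700001 to 49800000), CELF4 (34900001 to 35000000) and GRIK3 (37400001 to 37500000) were in places 8 to 10, with gaps of 68.4, 68.2 and 68.1 points. Place 11, just outside, had 68.0 points, so the edge of the choice separates near-equal windows. For macroH2A1 the KIF26B window at 245700001 to 245800000 was in place 3 (9.1% ± 12.9 to 91.8% ± 8.2, 82.7 points), and places 10 and 11 had 57.6 and 57.4 points.

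**Figure D2:**
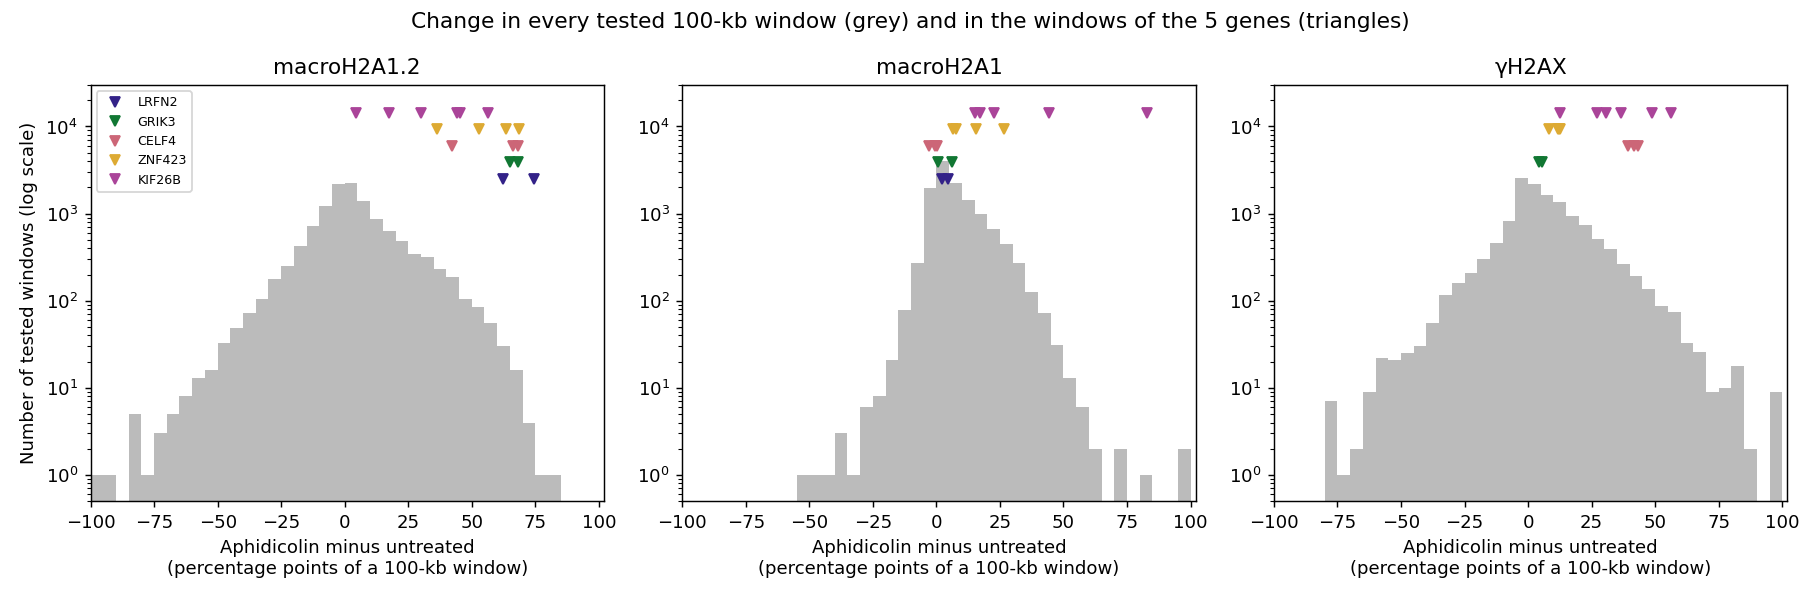
Aphidicolin minus untreated coverage, in percentage points of a 100-kb window, for every tested window (grey histogram, log count axis) and for the windows of the 5 genes (triangles, whose height only separates the genes). For macroH2A1.2 all triangles of LRFN2 and GRIK3 (62.2 to 74.3 points) lie at the right edge, with the largest of ZNF423 (68.4) and CELF4 (68.2). For macroH2A1 those of LRFN2, GRIK3 and CELF4 lie near the centre (-3.0 to 6.0). ZNF423 reaches 26.7 and KIF26B 82.7 points there. LRFN2 has no γH2AX triangle because its windows were at 0 in all 10 K562 γH2AX lists and were not tested.

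Reads in islands moved with the covered percent for macroH2A1.2. Both measures come from the same islands, and from the contrast that chose LRFN2, GRIK3, CELF4 and ZNF423. The reads are therefore a description and no independent support. Per kb of gene and per 1e6 reads in islands, where an even spread over the genome would give 0.329, the mean for LRFN2 was 0.487 ± 0.304 untreated and 2.3 ± 0.121 under aphidicolin (n = 2 each). GRIK3 had 0.586 and 2.66, CELF4 0.433 and 2.29, ZNF423 0.444 and 1.98, and KIF26B 0.875 and 1.84. Without aphidicolin, replicate 1 was below the even level in LRFN2 (0.272), CELF4 (0.208) and ZNF423 (0.244), and replicate 3 above it. All aphidicolin values were above it, and in no gene did the groups overlap. The share of all regions with separate groups was not counted in this unit.

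The hairpin libraries were both untreated and have no replicate, so no test was made. In the sh-RFP list macroH2A1.2 covered 50.9% of LRFN2, 60.8% of GRIK3, 86.4% of CELF4, 29.0% of ZNF423 and 51.4% of KIF26B. Each of these lies above both untreated lists of set 2, and CELF4 lies above its aphidicolin lists as well. The sh-RFP list holds 75.2e6 reads in islands against 9.64e6 to 12.5e6 in set 2, and the part of this depth in its higher coverage was not tested. In the sh-mH1.2 list coverage was 0% for LRFN2, GRIK3 and ZNF423, 0.805% for CELF4 and 2.81% for KIF26B, in a list that covers 0.781% of the genome. From low to high, macroH2A1.2 coverage thus ran sh-mH1.2, untreated, sh-RFP, aphidicolin in 4 of the genes, and in CELF4 sh-RFP came last.

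The macroH2A1 lists showed another pattern. LRFN2 was covered to 97.2 and 98.4% (replicates 1 and 2) without aphidicolin and to 99.2 and 99.6% with it, a gap of 1.58 points. GRIK3 was covered to 90.5 and 89.7% untreated and to 92.9 and 94.8% under aphidicolin, a gap of 3.77 points. CELF4 was covered to 95.9 and 96.9% untreated and to 94.2 and 97.5% under aphidicolin. These 3 neuronal genes were thus almost wholly inside macroH2A1 islands in untreated cells, and in CELF4 the groups overlapped (means -0.526 points apart). ZNF423 was covered to 62.2 and 75.7% untreated and to 77.1 and 88.3% under aphidicolin, 13.8 points apart. At equal covered length, where each list kept only its densest islands up to the shortest list, the ZNF423 gap was -1.09 points. KIF26B was covered to 33.3 and 31.9% untreated and to 63.8 and 67.3% under aphidicolin, 32.9 points apart. Of the 5 genes KIF26B alone had a macroH2A1 gap above 20 points, the value for which it was chosen.

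The median macroH2A1 gap over the genes was 3.77 points, against 4.9 points over all 12732 windows tested. In limma 1 of the 16 tested windows of the genes, in KIF26B, was called higher and 0 lower, against 6.71% and 0.11% of all tested windows, and 9 of 16 had separate groups, against 57.6%. Of their 158 tested steps 11 were called higher, 10 of them in KIF26B, and 0 lower, against 3.94% and 0.43% of all steps. Nothing is read from these counts, since the rule used them. The 2 targets come from different title sets, and set and target cannot be told apart. Reads per kb and per 1e6 for macroH2A1 were lower under aphidicolin in LRFN2 (2.79 ± 0.0387 to 2.37 ± 0.0584, n = 2 each), GRIK3 (2.68 to 2.31) and CELF4 (3.16 to 2.55), in each case without overlap. They were 1.77 and 1.66, with overlap, in ZNF423. In KIF26B they were higher, 0.861 ± 0.0622 against 1.36 ± 0.0195. This unit divides by all reads in islands, 39.0e6 and 41.0e6 untreated and 44.6e6 and 48.7e6 under aphidicolin. Reads not so divided overlapped between the groups in LRFN2 (21580 and 22229 untreated, 20404 and 23029 under aphidicolin). They overlapped as well in GRIK3 and CELF4. The part of the larger lists in the lower scaled values was not tested.

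Bases covered in both aphidicolin and neither untreated macroH2A1.2 list, called gained here, came to 92.6 kb in LRFN2, 129 kb in GRIK3, 165 kb in CELF4, 138 kb in ZNF423 and 115 kb in KIF26B. The reverse, lost bases, came to 4.0 kb in KIF26B and 0 in the others. Of the gained bases, 97.0% in LRFN2, 86.5% in GRIK3 and 98.4% in CELF4 lay inside islands of both untreated macroH2A1 lists. The share was 61.3% in ZNF423 and 21.1% in KIF26B, against 46.4% of the 52400 kb gained over the whole genome. Set beside the share of each whole gene that lay in both untreated macroH2A1 lists (96.4, 87.3, 94.7, 55.5 and 22.6% in the same order), the gained bases had nearly the share of their whole gene. Over the genome they did not: 9.11% of the whole span lay in both untreated macroH2A1 lists, against the 46.4% of gained bases. In the sh-RFP list lay 55.1% of the gained bases of LRFN2, 63.1% in GRIK3, 87.7% in CELF4, 26.5% in ZNF423 and 61.0% in KIF26B, against 51.2% over the genome. That list covered 50.9, 60.8, 86.4, 29.0 and 51.4% of the whole genes and 13.8% of the genome. In KIF26B macroH2A1 gained 123 kb, and 75.3% of these bases lay in both aphidicolin macroH2A1.2 lists.

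**Figure D3:**
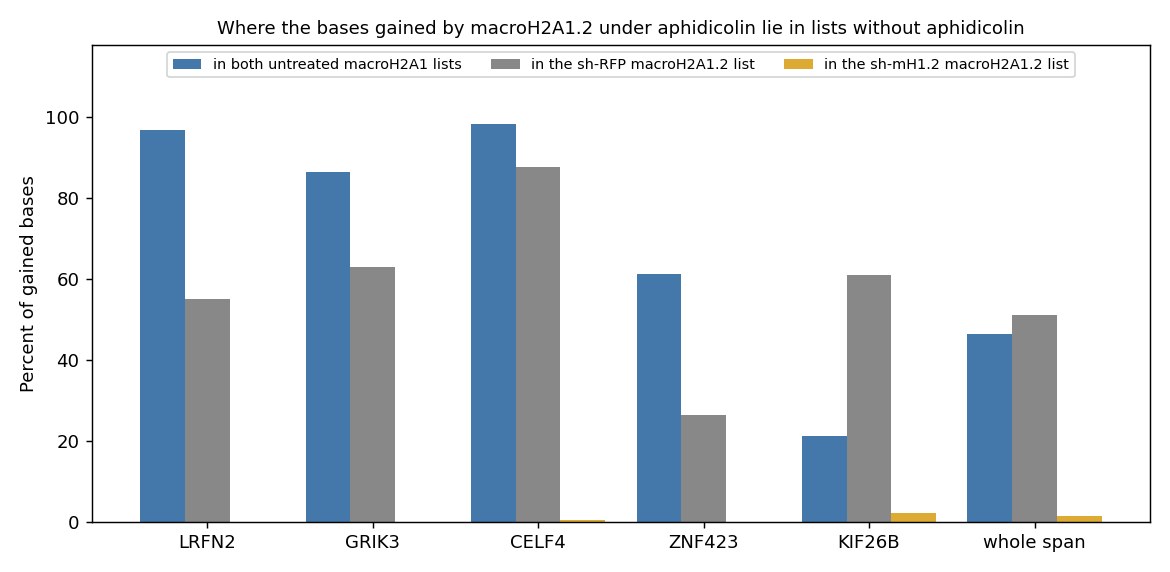
Percent of the bases gained by macroH2A1.2 (covered in both aphidicolin and neither untreated list) that lie in islands of 3 kinds of list without aphidicolin, for each gene and for the whole genome span. The bar for both untreated macroH2A1 lists falls from 98.4% in CELF4 and 97.0% in LRFN2 to 21.1% in KIF26B, and the sh-mH1.2 bars do not pass 2.08%.

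The stretch of coverage ended at different places around the genes. In CELF4 it stopped near the gene's 3′ end: the downstream flank of the same length as the gene held 0 to 1.3% in the macroH2A1.2 and macroH2A1 lists of sets 1 and 2. Its upstream flank was covered to 0 and 2.11% untreated and to 16.1 and 10.5% under aphidicolin by macroH2A1.2. KIF26B had 0% in its downstream flank in all 10 macroH2A lists, and its 6th window, at the 3′ end, held no macroH2A1 at all. Within KIF26B, macroH2A1.2 covered 50.6 and 52.4% on the 5′ side of the midpoint and 79.4 and 79.9% on the 3′ side under aphidicolin. In LRFN2 and GRIK3 the coverage ran past the gene: upstream of LRFN2 it was 12.2 and 18.7% untreated and 84.7 and 75.1% under aphidicolin, and upstream of GRIK3 11.3 and 16.4% against 68.5 and 77.8%. The flanks of ZNF423 were intermediate, with 20.8 and 25.9% against 40.9 and 40.8% upstream. In RefSeq gene order the nearest genes are MOCS1 and UNC5CL for LRFN2, CSF3R and ZC3H12A for GRIK3, and KIAA1328 and LOC105372073 for CELF4. C16orf78 and CNEP1R1 flank ZNF423, and DRC8 and SMYD3 flank KIF26B.

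In untreated macroH2A1.2 lists most 10-kb steps were thinly covered. Steps covered to at least 50% numbered 1 and 5 of 20 in LRFN2 untreated and 19 and 19 under aphidicolin, and 4 and 1 of 24 in GRIK3 against 24 and 24. They numbered 2 and 6 of 33 against 29 and 27 in CELF4, 0 and 7 of 37 against 29 and 30 in ZNF423, and 20 and 12 of 55 against 38 and 40 in KIF26B. The longest macroH2A1.2 island touching a gene was 7.0 and 18.0 kb untreated and 31.2 and 47.6 kb under aphidicolin in LRFN2, and 11.6 and 11.4 kb against 51.4 and 35.0 kb in CELF4. Coverage under aphidicolin was thus spread along nearly the whole of the first 4 genes, in islands broken by gaps, and not gathered at a single place. For macroH2A1 single islands reached 194 kb in LRFN2 and 230 kb in CELF4.

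**Figure D4:**
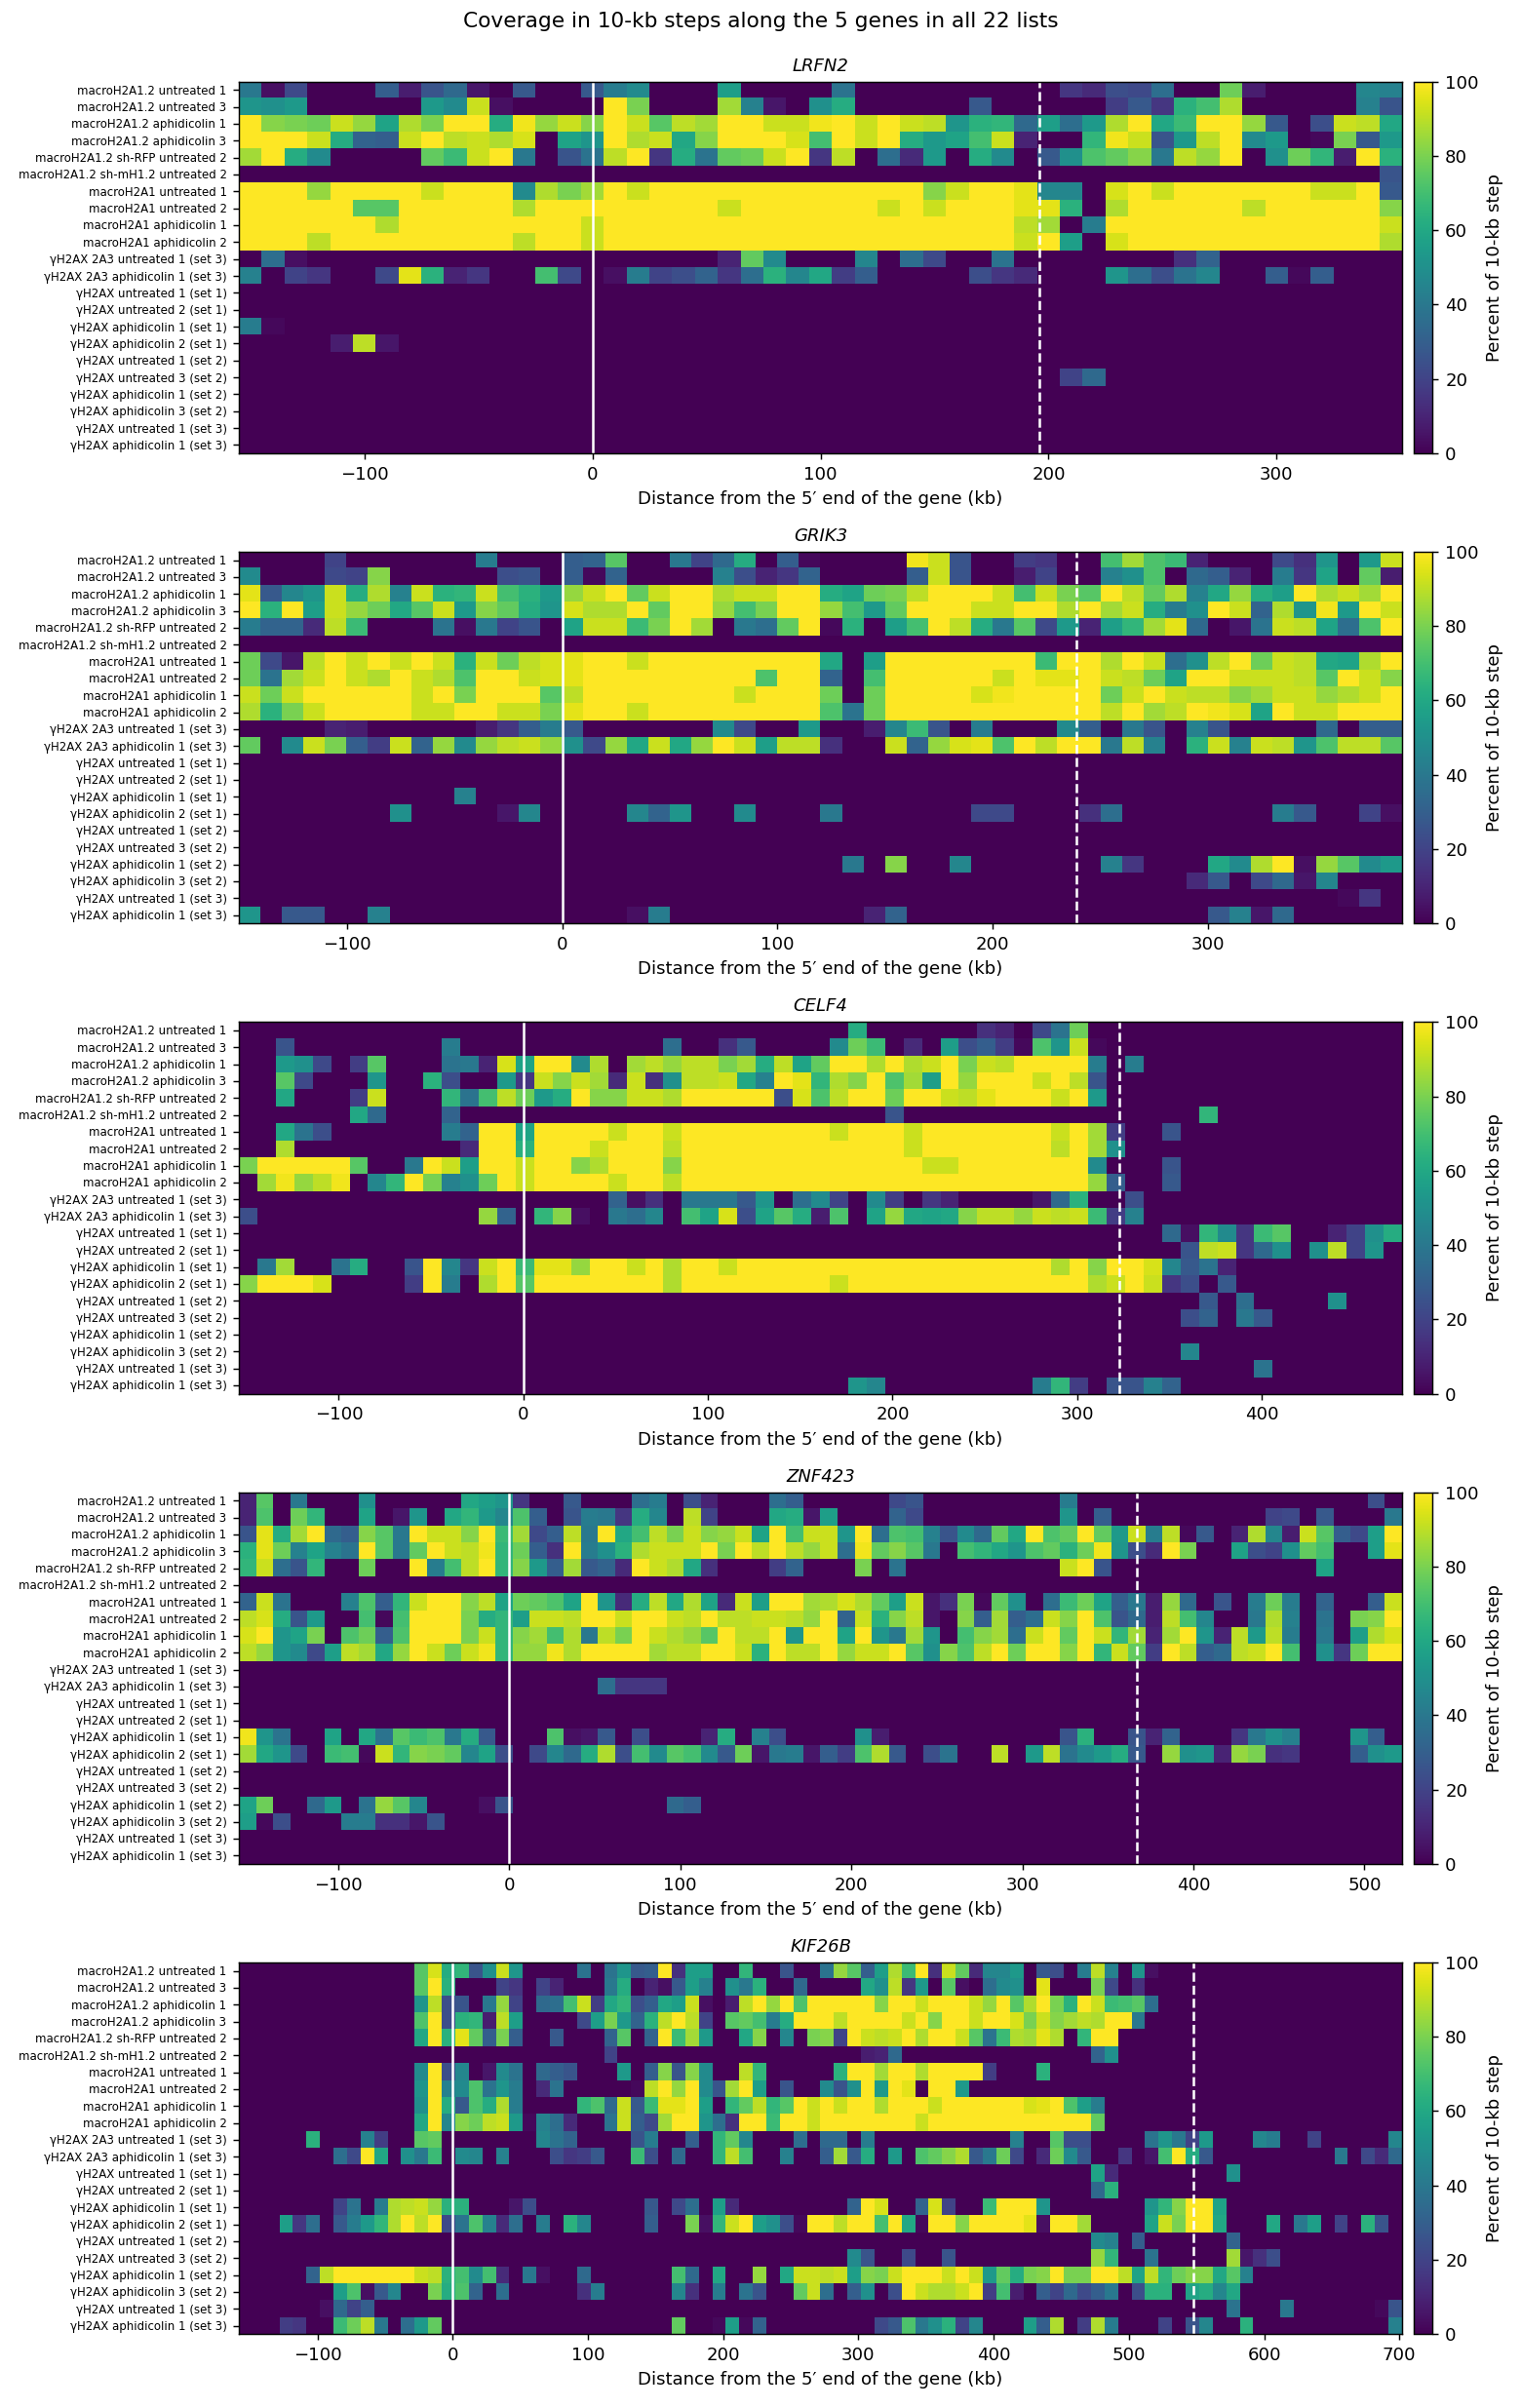
Percent of each 10-kb step inside islands (colour) along the 5 genes, by distance from the 5′ end in kb, in each of the 22 lists; the solid and dashed lines mark the 5′ and 3′ ends of the gene. MacroH2A coverage stops near the 3′ end of CELF4 and before that of KIF26B, and the 2 γH2AX aphidicolin lists of set 1 fill CELF4 (97.0 and 98.5% of the gene) while those of set 2 are at 0.

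The rule that chose the genes did not use γH2AX values, and γH2AX was tested. The genes were still chosen with earlier results of these data known. Sets 1 and 2 hold γH2AX beside the macroH2A libraries that the rule used, so the test is not blind to these data. KIF26B was covered to 1.28 and 1.79% (set 1), 2.23 and 5.66% (set 2) and 0% (set 3) in untreated K562. Under aphidicolin the values were 23.7 and 53.6% (set 1), 56.3 and 30.9% (set 2) and 15.5% (set 3). All 5 aphidicolin libraries lay above all 5 untreated ones, in each title set. The mean rose from 2.19% ± 2.11 to 36.0% ± 18.1 (SD, n = 5 each), a difference of 33.8 points. It passed the exact permutation test within title sets (two-sided p = 0.0278, the smallest that its 72 assignments can give). That p is not adjusted over the 5 genes, and no other gene passed. At equal covered length the difference was 8.29 points with the same exact permutation p. Without title set 3 it was 38.4 points (exact permutation p = 0.0556). The same p came, with differences of 33.3 to 38.9 points, when either untreated library of set 1, untreated replicate 1 of set 2 or either library of set 3 was left out. γH2AX leaned to the 3′ side of the midpoint, with 52.1% ± 24.6 there and 19.9% ± 12.6 on the 5′ side under aphidicolin (n = 5). The upstream flank of KIF26B, of the same length, had 0.664% ± 1.49 untreated and 29.3% ± 15.0 under aphidicolin (n = 5 each). The groups did not overlap there, as in 8.34% of all tested 100-kb windows. Its untreated values were at or near 0, so a fall could hardly show, and the flank was not tested.

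In limma over all 100-kb windows, with title set as a term, 5 of the 15 tested windows of the genes rose in γH2AX and 0 fell, against 3.8% and 1.34% of all 13456 tested windows. Of the 15 windows, 12 were at 0% in all 5 untreated libraries, so they entered the fit only through aphidicolin libraries and could not fall. The counts are therefore given as a description. All 5 are in KIF26B. All aphidicolin libraries lay above all untreated ones in 5 of the 15 windows as well, against 8.34% of all windows, and these are the first 5 of the 6 windows of KIF26B. The window at 245600001 to 245700000 rose from 2.44% ± 5.46 to 58.6% ± 26.1 (limma adjusted p = 0.0439, n = 5 each). In the window at 245700001 to 245800000, which holds the largest macroH2A1 gap, the untreated values were 5.8 and 3.4% (set 1), 4.8 and 8.4% (set 2) and 0% (set 3). The aphidicolin values were 42.0 and 78.6%, 80.6 and 33.2%, and 32.6%. The groups were far apart, and the mean rose from 4.48% ± 3.1 to 53.4% ± 24.2 (limma adjusted p = 0.0483, n = 5 each). The window starting at 245800001 rose by 36.4 points (limma adjusted p = 0.0489). Those starting at 245300001 and 245400001 were at 0% in all 5 untreated libraries and at means of 27.3 and 12.7% under aphidicolin (limma adjusted p = 0.0397 and 0.0489). A rise was the only change these windows could show, so their p-values are no independent support. The window starting at 245500001 had a difference of 30.8 points and did not pass (limma adjusted p = 0.0803). These calls sit close to the threshold. None was made when any single library of set 1, either untreated library of set 2 or aphidicolin replicate 1 of set 2 was left out, nor at equal covered length, with only the densest 50% of islands, or when windows covered in at least 1 library were tested. Without title set 3 the count in the genes was 5 of 14 tested windows while the background was 17.6%. The count was 8 of 15 on an arcsine scale in limma, 8 in edgeR and 11 in DESeq2, where 30.4, 28.1 and 44.6% of all windows were called higher, and 0 were called lower, against 10.5, 12.6 and 21.3% of all windows. On the arcsine scale 19 of 97 steps were called higher and 0 lower, against 12.6% and 3.11%.

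In 10-kb steps 11 of the 97 tested steps of the genes were called higher in γH2AX and 0 lower, against 8.21% and 1.82% of all 58455 tested steps, so the share of the genes (11.3%) was near the background. Of the 97 steps, 89 were at 0% in all untreated libraries and could not fall. All 11 lie in KIF26B, which has 45 tested steps.

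In γH2AX, CELF4 differed between title sets. It was at 0% in all 5 untreated K562 libraries. Under aphidicolin it was at 97.0 and 98.5% in set 1, at 0% in both libraries of set 2 and at 6.93% in set 3. In set 1 nearly the whole gene lay in γH2AX islands of up to 175 kb, and in set 2 none of it did. The mean difference of 40.5 points did not pass the exact permutation test within title sets (two-sided p = 0.167), and none of its 3 windows passed in limma (adjusted p = 0.101, 0.118 and 0.137). The effects in sets 1 and 2 were 96.8, 99.6 and 98.0 points apart in its 3 windows. Within the gene, macroH2A1 of set 1 covered 94.2 and 97.5% in the same 2 replicates, so both marks filled it. Past the 3′ end γH2AX went on where macroH2A1 did not: in the 10-kb steps centred 331 and 341 kb from the 5′ end, γH2AX was at 100 and 100% and at 94.0 and 92.0%, and macroH2A1 at 0%. Over the whole downstream flank γH2AX covered 25.0 and 26.5% in untreated and 10.7 and 8.98% in aphidicolin cells of set 1, so the flank was lower under aphidicolin while the gene was higher. The flank was not tested. In set 2 macroH2A1.2 covered 81.6 and 75.9% of the gene with no γH2AX island on it.

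ZNF423 was at 0% in all 5 untreated K562 libraries. Under aphidicolin it was at 11.5 and 42.2% in set 1, 1.74 and 0% in set 2 and 0% in set 3. The mean difference of 11.1 points did not pass (exact permutation p = 0.167), and it was 3.31 points without aphidicolin replicate 2 of set 1 and 0 at equal covered length. In that replicate 97.5% of the γH2AX length in ZNF423 lay inside macroH2A1 islands, which covered 88.3% of the gene. GRIK3 was also at 0% without aphidicolin and at 0 and 11% (set 1), 7.03 and 0% (set 2) and 3.68% (set 3) with it, a difference of 4.33 points (exact permutation p = 0.25) that was 0 at equal covered length. LRFN2 was at 0% in all 10 K562 lists and could not be tested. So the bodies of the 2 synaptic genes, with the largest macroH2A1.2 gaps over a gene body and over a window, had little or no γH2AX in K562. Beside GRIK3 it was higher: the downstream flank of the same length had 0.368% ± 0.823 untreated and 25.2% ± 13.1 under aphidicolin. Its upstream flank had 0% and 5.99% ± 4.94 (n = 5 each). In neither flank did the groups overlap, while in both flanks of LRFN2 they did. Of all tested 100-kb windows, 8.34% had all aphidicolin libraries above all untreated ones. No such share was counted for regions as long as these flanks. The untreated values beside GRIK3 were at or near 0, so a fall could hardly show. The flanks were not tested, nor measured at equal covered length. The median γH2AX difference over the 5 gene bodies, 11.1 points, is the value of ZNF423, which did not pass. Over all tested 100-kb windows the median was 4.28 points. Those windows are shorter than the genes and were kept only if covered in at least 2 libraries. The 2 medians are therefore not like for like, and nothing is read from them.

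**Figure D5:**
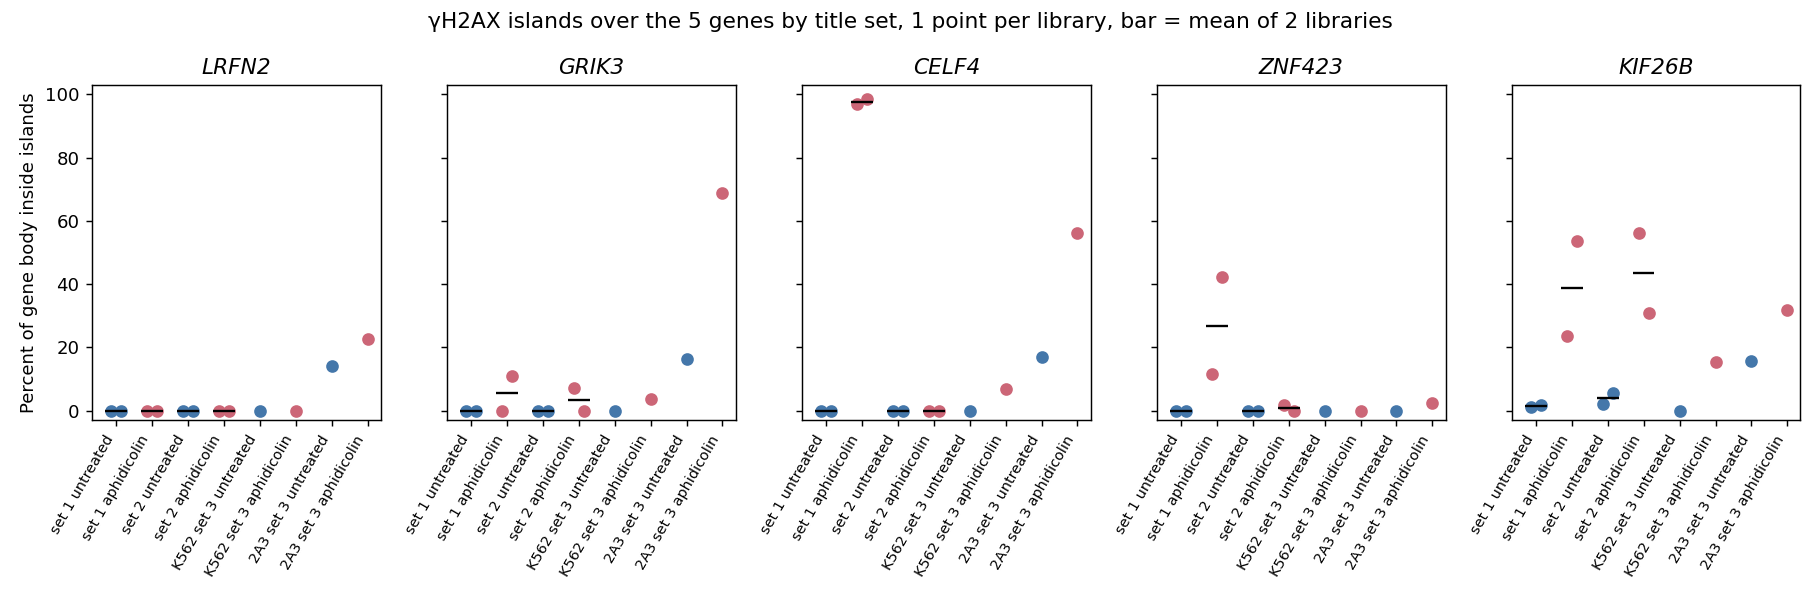
Percent of each gene body inside γH2AX islands by title set and treatment, 1 point per library, with a bar at the mean where a group has 2 libraries. KIF26B is higher under aphidicolin in every set of K562 (15.5 to 56.3% against 0 to 5.66%), CELF4 is high in set 1 alone among the K562 sets, and line 2A3 has values above 0 without aphidicolin in each gene but ZNF423.

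Where γH2AX lay in KIF26B under aphidicolin, 66.0 and 79.8% of its length was inside macroH2A1 islands in set 1 and 75.4 and 81.3% inside macroH2A1.2 islands in set 2. Over the genome these shares were 62.4 and 62.4% in set 1 and 40.4 and 50.2% in set 2. MacroH2A covered 63.8 to 67.3% of the gene in these 4 lists, and the share was not tested. In untreated cells the little γH2AX of KIF26B lay inside macroH2A1 islands to 0% in both replicates of set 1 and inside macroH2A1.2 islands to 93.4 and 40.0% in set 2.

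Each treatment of line 2A3 is a single γH2AX library, so its values are given without a test. In untreated 2A3 the coverage was 14.1% in LRFN2, 16.3% in GRIK3, 17.0% in CELF4, 0% in ZNF423 and 15.7% in KIF26B. Under aphidicolin it was 22.7, 68.8, 56.3, 2.29 and 31.9%. Each gene was higher with aphidicolin than without. In the K562 libraries of the same title set, LRFN2, GRIK3, CELF4 and ZNF423 were at 0% untreated. Their coverage was 0, 3.68, 6.93 and 0% under aphidicolin, below 2A3 in each gene. The 2A3 lists cover 91.0 and 135 Mb against 38.6 and 64.6 Mb in K562 of that set, and the part of list length in these values was not tested.

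Among the 5 genes LRFN2 and GRIK3 were most alike, with a mean absolute difference of 6.44 points over the 22 lists, and CELF4 and KIF26B least, with 24.2 points. Outside the genes, the window most like LRFN2 was next to it, on chromosome 6 at 40600001 to 40700000 (1.96 points). For GRIK3 it was 18300001 to 18400000 on chromosome 1 (3.67 points) and for ZNF423 47500001 to 47600000 on chromosome 7 (3.81 points). KIF26B (10, 71800001 to 71900000, 7.37 points) and CELF4 (15, 20400001 to 20500000, 8.21 points) had no window as close, the first number being the chromosome. The window on chromosome 15 had a mean γH2AX coverage of 52.7% under aphidicolin and 0.68% without, and that most like KIF26B 34.0 and 0%. These are descriptions over lists that share libraries and depth.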

How the data were processed

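The submitters' processing notes name Bowtie2 2.1.0, SICER 1.1, deepTools and hg19, without roles. Per the file names the authors gave, islands were called with a 200-bp window, a 600-bp gap and a false discovery rate of 0.01; the sh-RFP name also has the words merged and sorted without further detail. Each deposited list holds, for 1 library, the count of reads in every island, not scaled to depth; 14 input libraries were not analysed here. A list has no value outside its islands, so the covered percent of a region was the measure, and no counting interval is given, since calling error is not counting error. In a check for repeated files, at most 0.0366% of the islands of a replicate pair were identical in edges and reads.

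The genes and lists were chosen with earlier results of these data known. Groups, replicates and title sets came from the titles. γH2AX coverage of all windows or steps covered in at least 2 libraries was fitted with limma 3.58.1 (R 4.3.3), with title set as a term and Benjamini-Hochberg adjustment at 0.05. The fit was checked on simulated data drawn with the same spread in both groups and no effect of title set. That check does not cover windows at 0% untreated with a wide spread under aphidicolin, as in many windows of the genes. Gene bodies were compared with an exact permutation test within title sets, without adjustment over the genes. The macroH2A contrasts were fitted the same way, without the set term, only for the background share, and are given as a description. All 5 genes are named, with their windows of the largest macroH2A gap and those called for γH2AX. The window most like a gene is the one with the smallest mean absolute difference in covered percent. Alternatives were equal covered length, islands of at least 2000 bp, the densest islands, an arcsine scale, another coverage filter, a replicate block, trimmed gene ends, read shares, edgeR 4.0.16, DESeq2 1.42.0 and leaving out libraries. Promoters and gene order came from RefSeq (GRCh38.p14), and no coordinate was converted. The strands of LRFN2 and KIF26B were taken from general knowledge.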

Additional observations from a re-analysis of the deposited data

Results flagged for a closer look

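In ZNF423 the γH2AX coverage of aphidicolin replicate 2 of set 1, 42.2%, stood apart from the other 4 aphidicolin libraries of K562, which were at 0 to 11.5%. Its gap to the nearest library was 0.727 of the whole range, above the critical ratio of 0.71. Of 5 groups searched in this way 1 stood out. The critical ratio stands for a chance of about 1 in 20 in normally distributed values. These values were bounded at 0 and came from different title sets, so that rate cannot be relied on here. This library also has the longest γH2AX list, 235 Mb, and the part of list length was not tested.

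The γH2AX effect of aphidicolin in the 3 windows of CELF4 differed between set 1 and set 2 by 96.8 points at 34800001 to 34900000, 99.6 points at 34900001 to 35000000 and 98.0 points at 35000001 to 35100000 (limma, adjusted p = 9.61e-05 each). This test was made after the values were seen, in windows that were at 0% in all untreated libraries, so it restates them and is no independent support. Both aphidicolin libraries of set 1 were high and both of set 2 were at 0. What set the title sets apart is not given in the labels, and its part in the difference was not tested.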

How the results depend on the processing

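γH2AX was called higher in 5 windows of the genes, all in KIF26B. The count was 0 at equal covered length, 0 with only the densest 50% of islands, 0 when windows covered in at least 1 library were tested and 0 with the replicate block. It was 8 on the arcsine scale (30.4% of all windows), 8 in edgeR (28.1%) and 11 in DESeq2 (44.6%), and 0 to 5 when single libraries were left out. At unadjusted p under 0.05 the limma count was 2 at equal length, 4 with the densest islands, 8 with the wider filter and 6 with the block. No window of the genes was called lower under any of these settings. In the main fit 12 of the 15 tested windows were at 0% in all untreated libraries and could not fall. Among them were the called windows of KIF26B starting at 245300001 and 245400001. The 11 steps became 1 at equal length, 5 with the densest islands, 19 on the arcsine scale, 5 with the wider filter, 1 with the replicate block and 2 to 17 without single libraries. Replicate numbers were not shown to pair libraries (correlation of deviations -0.0652 in set 1 and 0.127 in set 2). The KIF26B gene body difference of 33.8 points had an exact permutation p of 0.0625 with the replicate block (33.8 points) and 0.0556 without title set 3 (38.4 points), the smallest p these designs allow, and was 28.8 to 38.9 points without single libraries.

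The median macroH2A1.2 gap of 64.4 points was 56.9 at equal length, 42.7 with the densest islands and 58.2 to 67.4 without single libraries. The median macroH2A1 gap of 3.77 points was 1.58 at equal length and 2.8 to 4.73 without single libraries. The macroH2A1 gap turned sign in ZNF423 at equal length (-1.09 points) and in CELF4 without aphidicolin replicate 1 (1.08 points, range -2.14 to 1.08). The cause of these shifts was not tested. With 2 libraries a group and unknown total depth, gaps of a few points cannot be resolved.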
